A study of Mus musculus with 2 samples.

Results

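The genes described here encode the mitochondrial ribosome and the respiratory chain. They are the protein-coding genes of GENCODE release M21 on mm10 whose symbol begins with Mrpl or Mrps and a digit, Nduf, Cox4 to Cox8, Uqcr or Atp5, or is Sdha, Sdhb, Sdhc or Sdhd. The rule used symbols only and no measured value, and it found 171 of 21827 protein-coding genes. By symbol alone, 78 of these (Mrpl and Mrps) were counted with the mitochondrial ribosome. The other 93 were counted as subunits or assembly factors of respiratory complexes I to V. The 13 protein-coding genes of the mitochondrial genome were left out of the count of all genes.

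The respiratory chain passes electrons from NADH (complex I, NADH dehydrogenase) and succinate (complex II, succinate dehydrogenase) through complex III (cytochrome bc1) and cytochrome c to complex IV (cytochrome c oxidase), and complex V (ATP synthase) uses the resulting proton gradient to make ATP. A few core subunits are encoded in mitochondrial DNA and are translated by the mitochondrial ribosome, whereas the proteins of that ribosome and all other subunits are encoded in the nucleus, so their promoters lie in nuclear chromatin. Several subunits of complex IV exist as a common form and as forms best known from heart and skeletal muscle, lung or testis. The spleen of a newborn mouse makes red blood cells, and developing red cells need mitochondria for the synthesis of heme.

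The assay was DNase-seq, which reads out accessible DNA from cuts of the enzyme DNase I, since it reaches open chromatin more readily than packed chromatin. The tissue was whole spleen of male B6CASTF1/J mice, the first-generation hybrids of C57BL/6J and CAST/EiJ, at 4 days of age. The only group held 2 libraries, labelled biological replicates 1 and 2. The labels number them as separate males but give the same donor identifier, so the spread between them may be partly technical. No treatment, genotype or tissue contrast exists in this design, and the smallest two-sided p of an exact paired test over 2 libraries would be 0.5, so no p-value is given. All cells of the spleen were assayed together, and fewer cells with an open promoter cannot be told apart from less opening per cell.

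The longer peak lists held 80323 peaks in replicate 1 and 88723 in replicate 2. Read totals were not used and the depth is unknown. Peak signal is the value the authors deposited for each peak, its scale is not given in the sources used here, and each library carries a scaling of its own. Each level is therefore also given as a percentile, the rank among all protein-coding genes with a promoter peak in the same library. All 8 erythroid marker genes and all 5 B cell marker genes looked at had open promoters, as did 1 of 4 T cell, 0 of 4 macrophage, 2 of 3 endothelial, 1 of 5 stromal and 0 of 4 hepatocyte markers. Macrophages are a usual cell type of spleen, and the promoters of their markers Csf1r, Spic, Adgre1 and C1qa were not called open here.

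Nearly every gene of the respiratory chain and mitochondrial ribosome had an open promoter. A promoter was called open where overlapping peaks of both libraries reached within 1 kb of any annotated start site. This held for 165 of 171 genes, or 96.5%, beside a background of 59.7% of all protein-coding genes (13028 of 21827). A peak of the authors' stricter list lay within 1 kb in each library for 165 of the genes, against a background of 54.7%. A footprint, a short stretch protected from cutting within open chromatin, was found in both libraries for 165 of them, against a background of 56.3%. The 165 open genes carried all 3 marks, and the other 6 carried neither a stricter peak in both libraries nor a shared footprint.

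Open chromatin at promoters goes with CpG density, so the share was also set beside genes of like CpG content. An observed over expected CpG ratio of at least 0.5 around the most upstream start site was found in 159 of the 171 genes, and all 159 were open, beside 89.2% of CpG-rich genes in general (10729 of 12030). The remaining 12 genes were CpG-poor and 6 of them were open, beside 23.5% of CpG-poor genes in general (2299 of 9797). Those 6 were Atp5f1, Atp5j2, Cox6b2, Cox7a1, Cox7b and Mrpl1. The CpG ratio was taken at the most upstream start site, whereas a promoter could be open at any start site. At Atp5f1 the nearest edge of a shared region was 639 bp away, outside the bases used for its CpG ratio. The strongest Mrpl1 peaks, 6.87 and 6.92, also lay outside those bases, at a start site other than the most upstream.

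All 6 closed genes were tissue-restricted isoforms, and 5 of them belong to complex IV. The list of restricted forms held 8 genes, of which 2 were open, while the other 163 of 163 genes of the group were open. All 8 restricted forms were CpG-poor, and the 25% open was near the 23.5% of CpG-poor genes in general. The other 4 CpG-poor genes of the group were open. The list of restricted forms was drawn up with earlier results of these data known, so this split is a description only. Sequences of 3 promoters, for which RefSeq (GRCm38.p6) holds an entry, show the difference between a common and a restricted form. They run from 250 bases before to 50 bases after the start site, 5′ to 3′ on the gene's strand, and capitals mark bases inside footprints found in both libraries.
Cox6a1: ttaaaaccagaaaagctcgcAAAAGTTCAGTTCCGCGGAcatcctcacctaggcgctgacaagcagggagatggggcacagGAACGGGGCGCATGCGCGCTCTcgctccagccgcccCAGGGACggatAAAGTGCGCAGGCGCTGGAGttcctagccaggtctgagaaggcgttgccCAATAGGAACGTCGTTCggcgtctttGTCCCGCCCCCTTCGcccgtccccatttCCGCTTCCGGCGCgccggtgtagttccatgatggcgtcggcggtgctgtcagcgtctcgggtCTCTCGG
Cox8a: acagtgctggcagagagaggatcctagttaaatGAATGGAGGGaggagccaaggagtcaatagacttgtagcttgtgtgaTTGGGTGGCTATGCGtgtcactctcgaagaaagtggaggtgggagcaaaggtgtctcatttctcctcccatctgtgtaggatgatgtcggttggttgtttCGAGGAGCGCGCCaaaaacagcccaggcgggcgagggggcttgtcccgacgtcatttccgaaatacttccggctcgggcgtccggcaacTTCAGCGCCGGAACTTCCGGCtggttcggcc
Cox8b: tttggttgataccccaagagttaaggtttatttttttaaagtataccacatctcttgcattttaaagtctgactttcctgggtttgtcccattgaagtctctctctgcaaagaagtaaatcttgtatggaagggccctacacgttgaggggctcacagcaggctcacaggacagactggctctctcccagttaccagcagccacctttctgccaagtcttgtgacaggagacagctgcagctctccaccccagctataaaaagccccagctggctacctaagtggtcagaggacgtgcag

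Cox6a1 (chr5:115348909-115349208, minus strand) and Cox8a (chr19:7217567-7217866, minus strand) are the common forms of their subunits. Cox8b (chr7:140900397-140900696, minus strand) is the form of Cox8 known from heart and skeletal muscle. The Cox6a1 window held 32 CpG dinucleotides and 8 shared footprints covering 120 bases, and the Cox8a window held 19 CpGs and 4 footprints covering 59 bases. The Cox8b window held 2 CpGs and 0 footprints. Of the 12 sequence motifs searched, the only match in the Cox8b window was a TATA box (TATAAA), whereas Cox6a1 held matches to NRF1, SP and KLF, and NFY, and Cox8a to ETS and NFY.

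Signals of the common and restricted forms differed as follows. Cox4i1, the common form of a nuclear-encoded subunit of complex IV, had a signal of 14.7 in replicate 1 and 9.65 in replicate 2. Cox4i2, the form known from lung and from low oxygen, had no peak within 1 kb in either library. Cox6a1 had 19.5 and 18.9, the highest of complex IV, and the muscle form Cox6a2 had no peak in either library. For Cox8, the common Cox8a had 10.7 and 9.24. Cox8b had a peak of 0.446 in replicate 1, at percentile 6.91, and none in replicate 2, and the testis form Cox8c had none in either. Cox7b, the common and X-linked form, had 3.34 and 2.89, and the testis form Cox7b2 had a peak of 0.156 in replicate 1, at percentile 0.129, and none in replicate 2. Ndufa4, named for complex I but known as a subunit of complex IV, had 8.48 and 6.11, and its low-oxygen relative Ndufa4l2 had no peak. In each of these pairs the common form had a peak in both libraries and the restricted form had none or a weak one in replicate 1 alone.

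**Figure D1:**
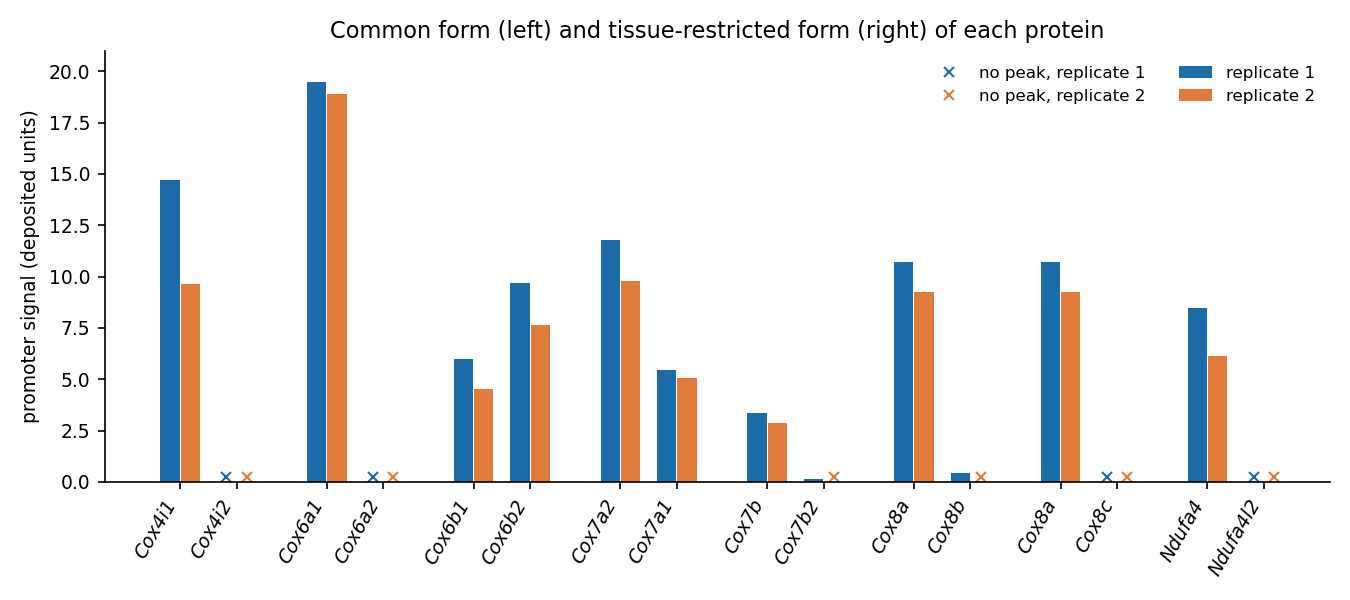
Bars give the promoter signal in deposited units of the common form (left) and a restricted form (right) of each protein, replicate 1 in blue and replicate 2 in orange, and a cross marks a library with no peak within 1 kb. Cox8a is drawn beside each of its 2 restricted forms, and only Cox6b2 and Cox7a1 among the restricted forms carry bars in both libraries, at 9.71 and 7.63 and at 5.44 and 5.07.

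No position with a false discovery rate under 0.05, the authors' limit, lay within 1 kb of a start site of Cox4i2, Cox6a2, Cox8c or Ndufa4l2 in either library. Among all protein-coding genes, 7358 of the 7640 without a promoter peak in either library likewise had no such position. The share of 31-base words within 1 kb that recur in the reference ran from 0% to 8.78% over the closed genes, highest at Cox6a2. Over all 171 genes the median was 1.78% and the highest value 19.5%. Whether repeated sequence bears on the closed calls was not tested.

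The closed genes differed in how far they lay from open chromatin. The nearest region with peaks of both libraries was 1887 bp from the Ndufa4l2 start (gene at chr10:127514967-127517154), with signals of 8.76 and 7.89, and 1914 bp from Cox6a2 (chr7:128205435-128206387), with signals of 1.28 and 1.02. It was 2895 bp from Cox8b (chr7:140898945-140900446), 11433 bp from Cox4i2 (chr2:152754173-152765037), 20656 bp from Cox8c (chr12:102899316-102900526) and 45870 bp from Cox7b2 (chr5:71442824-71548205). The region near Ndufa4l2 was above the median promoter of all genes in both libraries (6.37 and 5.23), and a window of 2500 bp called Ndufa4l2 and Cox6a2 open.

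The 2 restricted forms with open promoters were Cox6b2, known from testis, and Cox7a1, known from heart and skeletal muscle. Their shared peak regions are shown up to 30 bases past the start site, on the gene's strand, with shared footprints in capitals.
Cox6b2: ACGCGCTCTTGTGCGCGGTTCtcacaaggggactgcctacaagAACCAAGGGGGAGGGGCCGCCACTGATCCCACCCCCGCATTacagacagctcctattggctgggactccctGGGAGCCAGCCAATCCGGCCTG
Cox7a1: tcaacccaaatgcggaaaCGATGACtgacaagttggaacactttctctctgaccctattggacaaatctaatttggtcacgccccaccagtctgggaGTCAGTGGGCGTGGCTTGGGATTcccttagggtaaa

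The Cox6b2 stretch (chr7:4753065-4753200 of mm10, minus strand, start site at 4753094) held 7 CpGs in 136 bases and 3 footprints covering 84 bases. The Cox7a1 stretch (chr7:30184041-30184173, plus strand, start site at 30184144) held 4 CpGs in 133 bases and 2 footprints covering 30 bases. The only searched motif in either was the NFY box, CCAAT. The Cox6b2 stretch held it on both strands, inside a shared footprint only on the gene's strand. The Cox7a1 stretch held it on the opposite strand, outside the shared footprints. Cox6b2 had signals of 9.71 and 7.63, above the 5.99 and 4.52 of its common form Cox6b1 in both libraries. Cox7a1 had 5.44 and 5.07, below the 11.8 and 9.76 of its common form Cox7a2. Their CpG ratios were 0.432 and 0.277.

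Marker genes of the tissues for which these forms are known were mostly closed. Of 8 heart and skeletal muscle markers (Ckm, Myh6, Myh7, Actc1, Acta1, Tnnt2, Myl2 and Ckmt2) 0 were open, and the only peak was 0.296 at Actc1 in replicate 1. Of 8 testis germ cell markers 1 was open, Prm1, with 0.554 and 0.605, and Tnp2 had peaks of 0.565 and 0.417 that did not overlap. The other 6, Prm2, Tnp1, Odf1, Ldhc, Pgk2 and Ddx4, had none. All 4 lung and both brown fat markers were closed. The signals at Cox6b2 and Cox7a1 were thus more than the highest value of either marker list in the same library.

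A further set of isoforms differs from these. Atp5g1, Atp5g2 and Atp5g3 encode the same mature protein, the membrane ring subunit of ATP synthase, from 3 genes, and all were open. Atp5g1 had 9.44 and 12.3, Atp5g2 had 10.2 and 11.1, and Atp5g3 had 7.73 and 6.32. The order of Atp5g1 and Atp5g2 changed between the libraries, and Atp5g3 was the lowest of the 3 in both. Cox7a2l, which helps to join complexes III and IV into supercomplexes, had 8.25 and 6.10.

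Levels at open promoters were higher than the usual gene's. The median signal was 9.95 in replicate 1 and 8.54 in replicate 2, beside 6.37 and 5.23 over all genes with peaks in both libraries. In percentiles the medians were 67.6 and 69.2, and 122 genes lay above the 50th percentile in both libraries against 30 below it in both. Values of a pair of other housekeeping complexes are set beside these. The 83 cytosolic ribosomal protein genes, of which 82 were open, had medians of 10.7 and 9.95, and the 34 proteasome genes, all open, had 11.8 and 9.31.

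**Figure D2:**
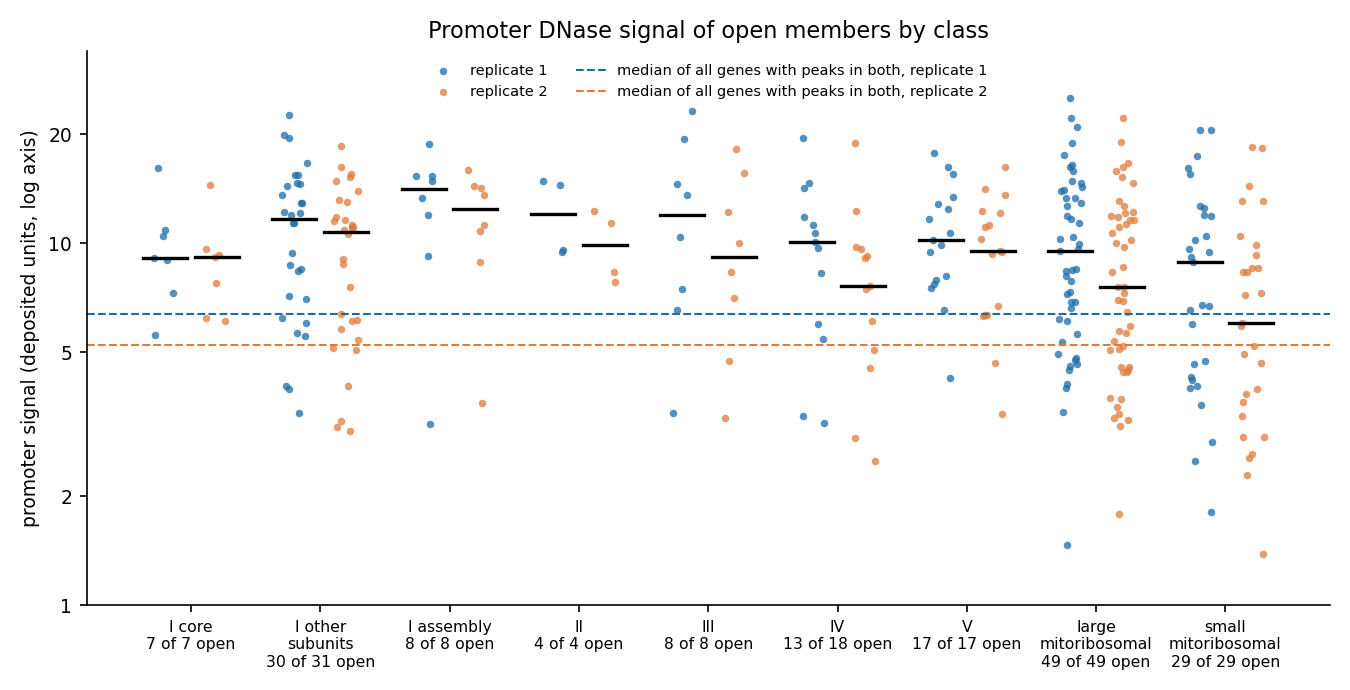
Each point is the promoter signal of an open gene in deposited units on a log axis, replicate 1 in blue and replicate 2 in orange, with black bars for class medians and dashed lines for the medians of all genes with peaks in both libraries. Every class median lies above the dashed line of its library, the complex I assembly factors highest at 14.1 and 12.4 and the small mitoribosomal subunit lowest at 8.87 and 6.02.

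Within complex I, the assembly factors had the highest medians of the 9 classes. All 8 were open with medians of 14.1 and 12.4, at percentiles 81.5 and 83.1. Ndufaf2, an assembly chaperone, had 18.8 and 14.2 and Ndufaf3 had 15.3 and 15.9, while Ndufaf1 was low at 3.17 and 3.63. The 7 core subunits, which carry the flavin, the iron-sulfur clusters and the sites of electron transfer, had medians of 9.09 and 9.16. Ndufv1, which binds NADH, had 10.5 and 9.16, and Ndufs8 was among the lowest with 5.57 and 6.21. Of the 31 other genes named for complex I, 30 were open, with medians of 11.7 and 10.7. Ndufv3 had 22.6 and 18.6, the highest of complex I in both libraries, and Ndufc2 had 3.39 and 3.03, the lowest of these accessory subunits in both.

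The 4 genes of complex II, which is also the succinate dehydrogenase of the citric acid cycle, had signals from 9.45 to 14.9 in replicate 1 and from 7.83 to 12.3 in replicate 2. Sdha, the flavoprotein, had 14.5 and 11.4 and Sdhc, a membrane anchor, had 14.9 and 12.3. Sdhb, the iron-sulfur subunit, had 9.60 and 7.83 and Sdhd, the other anchor, had 9.45 and 8.35. All 4 lay above the 50th percentile in both libraries. Among the 8 genes of complex III, all open, Uqcrfs1, the Rieske iron-sulfur protein, had 23.2 and 15.6, and Uqcrq had 19.4 and 18.2. Uqcrb had 3.39 and 3.29, so the open promoters of this complex spanned a wide range.

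Complex IV had 13 of 18 promoters open, with medians of 10.1 and 7.63 over those. By mean percentile Cox5b came after Cox6a1, with 14.2 and 12.3, although Cox4i1 was above it in replicate 1. The lowest open promoters were those of Cox7c, with 3.19 and 2.51, and Cox7b. All 17 genes of complex V were open, with medians of 10.2 and 9.54. Atp5s, a coupling factor, had 17.8 and 14.1, and Atp5mpl, a small membrane subunit, had 15.5 and 13.6. Atp5b, the catalytic beta subunit, had 13.4 and 16.2, whereas Atp5a1, the alpha subunit that alternates with it in the catalytic head, had 6.52 and 4.68. Partners of fixed stoichiometry in the assembled enzyme thus differed in promoter signal in both libraries.

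All 78 mitochondrial ribosome genes were open. The 49 genes of the large subunit had medians of 9.53 and 7.55, and the 29 of the small subunit had 8.87 and 6.02. Mrpl49 had 25.2 and 19 and Mrpl17 had 22.2 and 22.2, the top of the large subunit. The Mrpl49 region also covered a start site of Fau, so its signal cannot be assigned to either gene alone. Mrps14 had 20.5 and 18.4 and Mrps18b 20.5 and 18.3, the top of the small one. The Mrps18b peak is among those over 400 bp from a start site, with Ppp1r10 nearby, as described below. At the bottom, Mrpl24 had 1.47 and 1.79, Mrps25 had 1.81 and 1.39 and Mrps22 had 2.51 and 2.29. Even these lowest open promoters were above the peaks of Cox7b2 and Cox8b.

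Only 3 of the genes lie on the X chromosome, of which a male carries a single copy. Ndufa1 had 4.03 and 3.10, Ndufb11 had 3.96 and 3.23, and Cox7b had 3.34 and 2.89. All 3 were under the 50th percentile in both libraries, with medians of 39.5 and 38.5. This is close to X-linked genes as a whole, with median percentiles of 35.0 and 35.1, beside 52.7 and 53.0 for autosomal genes.

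The order of the genes was much the same in both libraries. Pearson's r of the log2 signals was 0.966 over the 165 open genes and 0.989 over all genes with peaks in both libraries, a description across genes, which share the 2 libraries and are not independent replicates. Replicate 1 had the larger signal at 143 of 165 genes, as it did at 10828 of 13124 of all genes with peaks in both libraries, with a median log2 ratio of replicate 1 over replicate 2 of 0.26, beside 0.24 over all genes. After centring on all genes, 161 of 165 lay within 0.5 of zero on the log2 scale, as did 12353 of all 13124 genes. The largest ratios were 0.83 at Mrpl4 (7.84 and 4.41), 0.70 at Mrps11 and Mrpl46 (the same peak, 9.64 and 5.91), 0.69 at Mrpl38 (7.34 and 4.56) and 0.66 at Mrps15 (4.04 and 2.56). The smallest were -0.39 at Atp5g1, -0.29 at Mrpl24, -0.27 at Atp5b, -0.24 at Mrpl16 and -0.21 at Mrpl39. Marker genes moved between the libraries too, with a median log2 ratio of 0.34 over the 8 erythroid and -0.42 over the 5 B cell markers, and their part in these ratios was not tested.

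**Figure D3:**
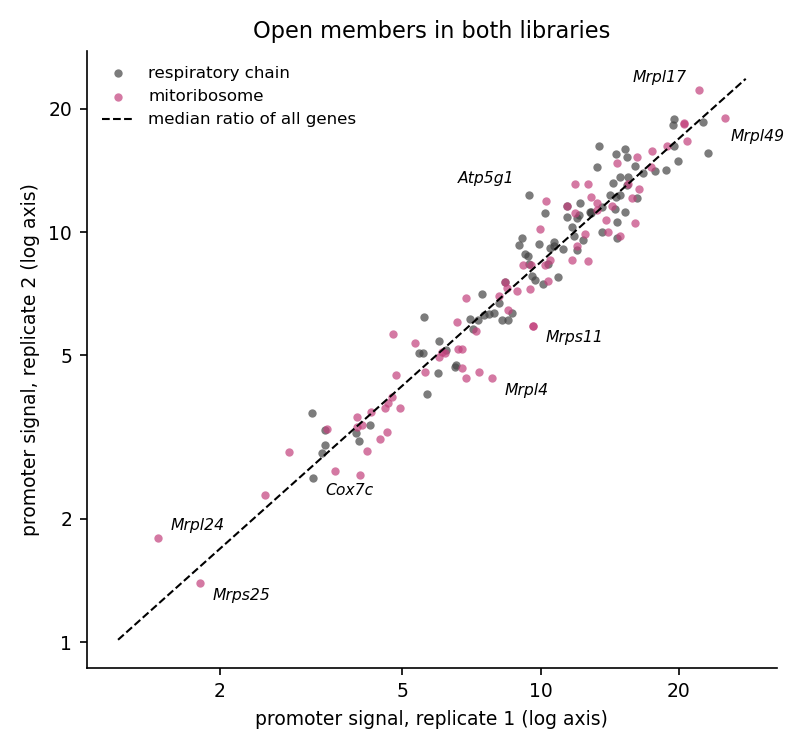
Each point is an open gene, with its promoter signal in replicate 1 across and in replicate 2 up, both in deposited units on log axes, grey for the respiratory chain and pink for the mitochondrial ribosome. The points follow the dashed line, which is the median ratio of all genes (log2 of 0.24), with Mrpl4 and Mrps11 below it and Atp5g1 and Mrpl24 above it.

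Peak positions were counted for this group only, with no share over all genes to set beside them. The strongest peak covered an annotated start site in both libraries for 136 of the 165 open genes, and its midpoint lay within 150 bp of a start site in both for 142. It lay over 400 bp away in either library for 11, of which 9 had the start site of another gene within 1 kb. Atp5f1, for the peripheral stalk of ATP synthase, was one of these: the nearest edge of a shared region was 639 bp from its start site, the region covered the start of Wdr77, and the signals of 12.8 and 11.2 cannot be assigned to either gene alone. Mrps18b with Ppp1r10 and Mrpl48, near Rab6a, were others, and these had the most shared footprints, 18 each. After them came Atp5j with 13, and Atp5b, Mrpl40, Ndufa11, Ndufa13 and Uqcrh with 12 each, beside medians of 6 per open gene of this group and 5 per open gene overall.

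Divergent promoters were frequent. The start site of another gene lay on the opposite strand within 1 kb upstream for 52 of the 171 genes, or 30.4%, beside 8.99% of all protein-coding genes. Among open genes the shares were 31.5% and 14.3%. By class they ran from 3 of 4 in complex II and 4 of 8 among complex I assembly factors to 1 of 18 in complex IV. Median signals were 11.1 and 9.55 over the 52 genes with a divergent gene, against 9.6 and 7.83 over the open genes without. Over all protein-coding genes with a divergent gene they were 10.9 and 9.25. On either strand, the start site of another gene lay within 1 kb for 64 of the 171 genes, beside 2568 of all 21827. Atp5j, a stalk subunit of ATP synthase, diverged from Gabpa, the gene of an ETS-family factor known to act on genes of the respiratory chain. The region with the strongest peaks near Atp5j, 7.54 and 6.29, covered a start site of Gabpa. The peak midpoints lay 583 and 573 bp downstream of the nearest Atp5j start site. A shared region over an Atp5j start site had 1.67 and 1.38. Mrpl49 diverged from Fau, which encodes a protein of the cytosolic ribosome. In 3 pairs with start sites within 1 kb of each other both genes belonged to the group: Mrpl46 with Mrps11, Mrpl36 with Ndufs6 (8.37 and 7.55) and Mrpl47 with Ndufb5 (11.4 and 11.6). The genes of a pair share their peak and are not independent.

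Regulatory sequence was searched in 2 ways, in the footprints found in both libraries and in the RefSeq promoters. Each motif was searched on both strands. The NRF1 word was GCGCATGCG, with a looser form GCGCANGCG that includes it, the ETS word was CCGGAAGT and the YY1 word was AAGATGGCG. SP and KLF factors were searched as GGGCGG and the cyclic AMP element as TGACGTCA. The remaining words were CCAAT for the factor NFY, CACGTG for the E-box of basic helix-loop-helix factors, AAGGTCA for the estrogen-related receptors (ESRR), TCTCGCGA for BANP, TATAAA for the TATA box and AGATAA for the GATA family. Apart from the NRF1 forms, no word contains another. A match names letters and not the protein bound. NRF1 and YY1 words were each found at a larger share of these genes than of other genes. An NRF1 word lay in a shared footprint at 20 of 165 genes, or 12.1%, beside 4.96% of the 12115 other genes with a shared footprint. The looser form lay at 30.3% beside 16.3%, the YY1 word at 8.48% beside 2.76%, and the ETS word at 9.09% beside 5.48%. The ESRR word was at 4 genes, or 2.42%, beside 0.619%. The SP and KLF word, the most frequent in both, went the other way, at 50.3% beside 63.8%. These shares carry no test.

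**Figure D4:**
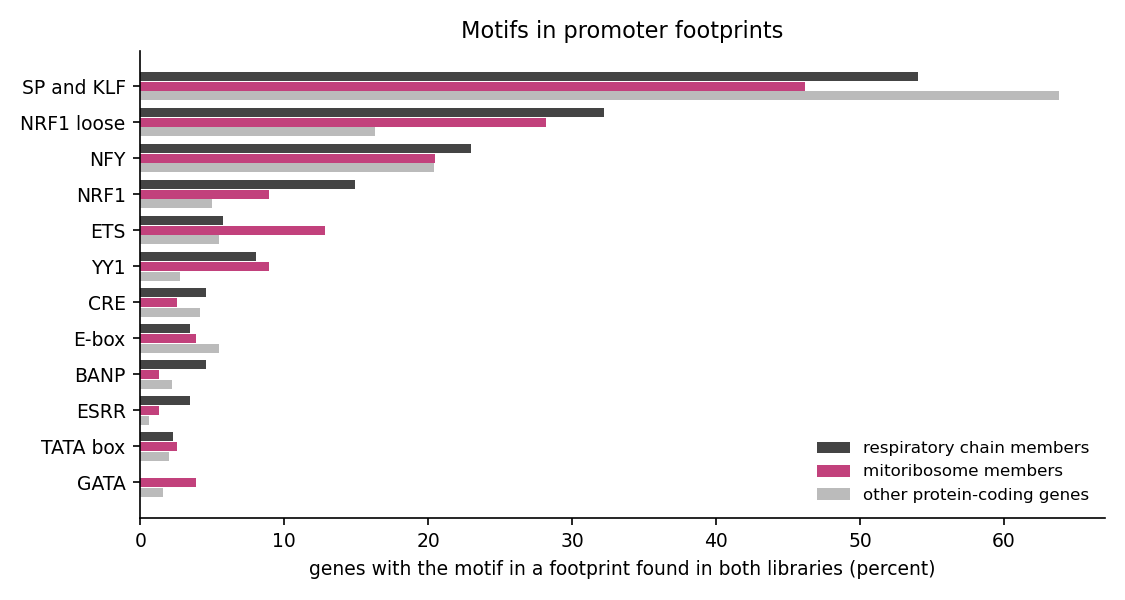
Bars give the percent of genes with each motif in a footprint found in both libraries, for respiratory chain genes (dark), mitochondrial ribosome genes (pink) and other protein-coding genes (light). The NRF1 word is at 14.9% of respiratory chain and 8.97% of mitochondrial ribosome genes beside 4.96% of other genes, and the ETS word is at 5.75% and 12.8% beside 5.48%.

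Counts for the respiratory chain and the mitochondrial ribosome are given side by side, with no test of their difference. NRF1 words lay in footprints of 13 of 87 open respiratory chain genes and 7 of 78 mitochondrial ribosome genes, ETS words in 5 and 10, and YY1 words in 7 and 7. RefSeq promoters, matched for 143 of the 171 genes, gave 150 open promoter entries of these genes and 10734 of other genes. NRF1 words were in 11.3% beside 4.13%, YY1 words in 10.7% beside 3.28%, ESRR words in 8.0% beside 2.54%, ETS words in 10.7% beside 9.13% and SP and KLF words in 47.3% beside 70.4%. GATA words were in 11.3% beside 5.13% of promoters, yet in footprints of 3 genes, or 1.82% beside 1.57%. Open promoters of cytosolic ribosomal proteins, another housekeeping set, held the NRF1 word in 4.23% of 71 entries, the YY1 word in 8.45%, the ESRR word in 8.45%, the ETS word in 16.9% and the SP and KLF word in 63.4%. For ESRR this was close to the 8.0% above.

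The NRF1 word is a near palindrome, and the footprints that hold it are shown for a gene each of 4 classes, with 5 bases added at each end, on the gene's strand, and the matching bases in capitals.
Ndufs8, chr19:3912521-3912551, minus strand: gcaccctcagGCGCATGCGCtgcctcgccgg
Ndufaf4, chr4:24897961-24897990, plus strand: cagatgtctGCGCATGCGCctgtgcggaag
Uqcr11, chr10:80406813-80406838, minus strand: cgatcgccttcaCGCATGCGCtatac
Mrpl22, chr11:58171612-58171651, plus strand: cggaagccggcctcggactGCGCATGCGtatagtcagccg

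The ETS word, core of the sites bound by GABP, is shown the same way for a core subunit of complex I and a protein of each mitoribosomal subunit.
Ndufs1, chr1:63176823-63176848, minus strand: gcctcggctACTTCCGGcggaactgc
Mrps26, chr2:130563737-130563759, plus strand: cggccACTTCCGGgccgggcgca
Mrpl33, chr5:31613933-31613962, plus strand: gaacccgcgcatgccCCGGAAGTagtcgtt

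The YY1 word contains ATG, and in 4 of the 5 genes shown this ATG is an annotated start codon of the gene. The examples shown are a selection, and over the whole group this held for 8 of 14 YY1 footprints. Mrpl42 is the exception among those shown.
Ndufs7, chr10:80249468-80249496, plus strand: aggccAAGATGGCGgcgctggcgggtgag
Ndufc1, chr3:51408916-51408937, minus strand: gaacAAGATGGCGccgtccgta
Uqcrc1, chr9:108936715-108936740, plus strand: gAAGATGGCGgcgtccgcagtctgcc
Mrps10, chr17:47368899-47368927, plus strand: gcaccAAGATGGCGgcgcgcgcagcgtgt
Mrpl42, chr10:95501903-95501925, minus strand: agcAAGATGGCGagcgcgcggtg

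The positions of the 3 words are given against the nearest start site. Counting each gene and footprint as a pair, the 20 NRF1 footprints had a median position 23.5 bp upstream (41 bp at other genes), with 12 within 100 bp, or 60%, beside 60.7% of 643 pairs at other genes, so this share was at the background. From 0 to 100 bp downstream lay 8 of the 20 NRF1 footprints, or 40%, beside 15.6% at other genes. The 15 ETS footprints had a median 11 bp upstream, with 14 within 100 bp, or 93.3%, beside a median 17 bp upstream and 74.9% of 697 pairs at other genes. The exception was at Ndufa13, 795 bp downstream. The 14 YY1 footprints had a median 29.5 bp downstream, beside 15 bp downstream at other genes. Of these, 11 lay from 0 to 100 bp downstream, or 78.6%, beside 47.8% of 345 such pairs at other genes. On the gene's own strand were 11 of the 14, or 78.6%, beside 68.4% at other genes. In 8, or 57.1%, the word held an annotated start codon of the gene, beside 104 of 345, or 30.1%, at other genes. Among these genes were Mrps10, Mrps18a, Ndufs7, Ndufc1, Mrpl46, Uqcrc1 and Mrpl38. The footprint at Mrpl46 is counted also for Mrps11, with which it shares a promoter.

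**Figure D5:**
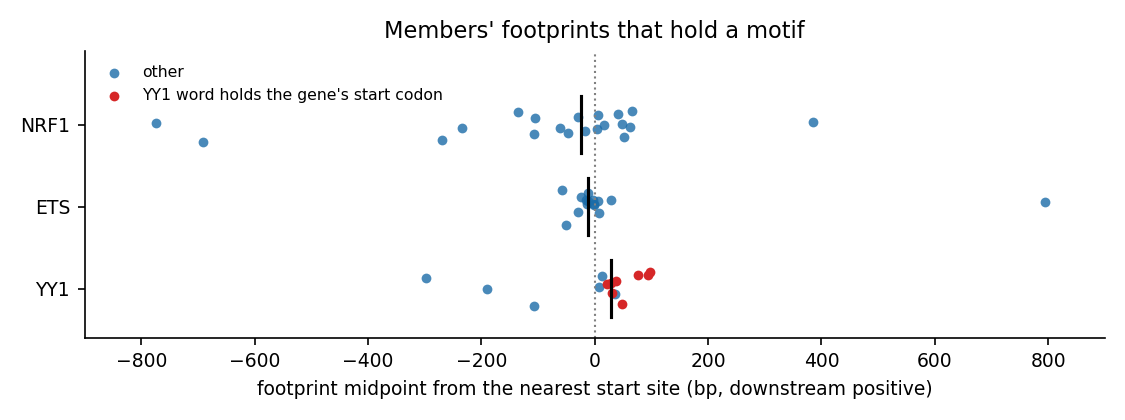
Each point is a footprint of a gene of the group that holds the NRF1, ETS or YY1 word, placed by the distance of its midpoint from the nearest start site in bp, downstream positive, with black lines for medians. ETS footprints gather at the start site (median -11 bp), while YY1 footprints lie just past it (median 29.5 bp), with the 8 whose word holds a start codon in red.

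Genes that serve the same machinery but fall outside the symbol rule were open at a like share. Of 26 genes for the replication, transcription and translation of mitochondrial DNA, 25 were open, with medians of 8.05 and 6.36. The highest by mean signal was Tfb2m, a mitochondrial transcription factor, with 20.1 and 17.6, and Mtrf1l, a release factor of mitochondrial translation, was above it in replicate 2 with 17.3 and 18.6. The Tfb2m region also covered a start site of Cnst, so its signal cannot be assigned to either gene alone. Mtg2, a GTPase of the mitochondrial ribosome, had a peak of 0.441 in replicate 1 alone, and a shared region of 9.94 and 7.73 lay 1113 bp from its start. All 5 mitoribosomal proteins with other names were open, Aurkaip1 highest with 15.3 and 15.1.

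Of 33 other assembly factors and cytochrome c genes 31 were open, with medians of 8.46 and 7.70. Here too a pair of isoforms split. Cycs, the somatic cytochrome c, had 25.2 and 21.9, the highest of the list, and Cyct, the testis form, had no peak in either library. The other closed gene was Sdhaf1, an assembly factor of complex II, with a shared region of 13.5 and 12.2 at 1355 bp from its start. Among 8 nuclear regulators of these genes 7 were open. Esrra, an orphan nuclear receptor, had 38.5 and 30, at percentiles 99.9 and 99.7. Nrf1, Gabpa and Yy1, whose words were searched, had 10.7 and 7.37, 7.54 and 6.29, and 21.9 and 18. Ppargc1a, a coactivator known from brown fat and muscle, was the closed gene, with a peak of 0.266 in replicate 2 alone.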

How the data were processed

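DNase-seq files of 2 spleen libraries were used, all on mm10 per the file headers. Each library came with 2 peak lists, in which the authors give a signal per peak, with footprints, and with stretches of bases that carry a q-value (false discovery rate), as deposited. The deposited q-value is 0.01 in every footprint line, so footprints were not ranked, and the lists of stretches hold values under 0.05. The deposited signals rise in steps of 0.00538 (replicate 1) and 0.00409 (replicate 2), so the libraries were scaled separately. Peaks were listed for each library alone. Not given in the sources used here are the aligner, the callers, their versions and the placing of reads with CAST/EiJ alleles. No read totals were used, so the depth is unknown and no counting interval is given.

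From these files, promoter signal was computed as the highest peak of the longer list within 1000 bp of any of 41438 start sites of GENCODE M21 basic protein-coding transcripts. Regions were shared where peaks of both libraries overlapped by at least 1 bp. CpG ratios used 1001 bp. Motifs were searched in footprints with 5 bases added on each side and in RefSeq promoters, and start codons came from the same annotation. The interval code was tested on simulated peaks. Python 3.11.15, numpy 2.4.6, pandas 2.3.3, pysam 0.24.0 and matplotlib 3.10.9 were used.

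The group, its lists, the motifs and the rule for named genes (the 2 highest and 2 lowest of each class, every gene without a peak in both libraries, all isoforms, the 5 largest and 5 smallest library ratios, the 5 with most footprints, and in related lists the highest and every closed gene) were chosen with earlier results of these data known. Other genes named were chosen after their values were seen, for the sequence or pairing they show. Genes tied for the most footprints are all named. A gene that the rule names is not reported here. Alternatives were each library alone, the stricter lists, windows of 500 and 2500 bp, the most upstream start site only, a reciprocal overlap of 50%, and summed peaks.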

Additional observations from a re-analysis of the deposited data

How the results depend on the processing

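The number of open genes stayed between 163 and 167 of 171 under the 7 alternatives, while the share of all protein-coding genes moved from 54.6% to 62.8%. A 500 bp window lost Atp5f1, and a reciprocal overlap of 50% lost Mrpl38 and Ndufs8. The count of open restricted isoforms, 2 of 8, was 2 to 4 with 1 library left out: without replicate 2 it rose to 4, through the weak replicate 1 peaks of Cox7b2 and Cox8b. It was also 4 with a 2500 bp window, through Cox6a2 and Ndufa4l2. It was 2 with the stricter lists, a 500 bp window, the most upstream start site or a reciprocal overlap of 50%. Stricter peaks were found in both libraries for 164 or 165 genes and shared footprints for 163 to 165. The median promoter signal, 9.24 as the mean of the libraries, was 10.7 with peaks summed over the window, and 8.54 and 9.95 in the single libraries. No paired analysis was possible because the libraries form 1 group. Depth is unknown, so a weak peak present in 1 library only may lie under the limit of detection of the other.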
